A study of Mus musculus with 18 samples.

Results

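The genes described here are 7 cyclins (*Ccnd1*, *Ccnd2*, *Ccnd3*, *Ccne1*, *Ccne2*, *Ccna2* and *Ccnb1*) and 3 cyclin-dependent kinases (*Cdk4*, *Cdk6* and *Cdk1*) of the cell cycle, taken by gene symbol from RNA-seq count tables of mice that lack repeat B of *Xist*. All 10 were found in both tables, among 21959 genes listed for primary mouse embryonic fibroblasts (MEFs) and 51826 listed for liver, and all 10 passed the filter on low counts in both. None of them lies on the X chromosome. *Xist* is the noncoding RNA that coats and silences the inactive X chromosome, and its repeat B is needed to bring Polycomb repressive complexes to that chromosome. The study describes RepB-/- mice as homozygous for a CRISPR/Cas9 deletion of repeat B, made in ICR mice, and the WT mice carried the intact gene. Each genotype had 3 libraries in MEFs and 3 in liver, all from polyA RNA. The labels give no age, sex or treatment for these samples, name the MEF samples both as tail and as a primary MEF line, and do not say whether replicates came from separate animals or cultures, so the p-values below measure only the spread between these libraries.

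Cyclins are regulatory subunits that appear and vanish in turn through the cell cycle and switch on the kinases they bind. D-type cyclins with Cdk4 or Cdk6 act first, in response to growth signals, and phosphorylate the retinoblastoma protein, which frees E2F transcription factors. E-type cyclins with Cdk2 then drive entry into S phase, cyclin A2 serves S phase and the time before mitosis, and cyclin B1 with Cdk1 starts mitosis. Transcripts of the later cyclins and of *Cdk1* are made mainly in dividing cells, whereas *Cdk4*, *Cdk6* and the D-type cyclins are also transcribed in resting cells. In adult liver most hepatocytes rest, and fetal liver grows and also makes blood cells.

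Promoter sequence is shown for 3 of the kinases and cyclins whose counts differed between the genotypes in MEFs, because it holds the letters of elements known from cell cycle genes. RefSeq promoter windows of build GRCm38.p6 were given for 6 of the 10 members. The 250 bases before each start were searched on both strands for CCAAT (the CCAAT box), TTTGAA (a cell cycle homology region, CHR), GCGGGAA and GCGCCAA (E2F cores) and CACGTG (an E-box, which reads the same on both strands). Capitals mark matches, positions count back from the start, and E2F and CCAAT letters can share bases.
Cdk1, chr10:69352913-69353162, minus strand: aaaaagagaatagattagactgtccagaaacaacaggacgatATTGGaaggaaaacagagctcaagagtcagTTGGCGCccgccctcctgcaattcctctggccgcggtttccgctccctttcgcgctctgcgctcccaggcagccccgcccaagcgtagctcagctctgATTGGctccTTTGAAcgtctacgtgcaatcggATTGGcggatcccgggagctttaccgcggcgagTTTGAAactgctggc
Ccnb1, chr13:100786571-100786736, minus strand: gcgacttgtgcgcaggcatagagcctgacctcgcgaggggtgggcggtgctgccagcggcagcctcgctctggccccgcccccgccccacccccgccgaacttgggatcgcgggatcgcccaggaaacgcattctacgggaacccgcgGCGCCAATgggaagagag
Cdk4, chr10:127063285-127063534, plus strand: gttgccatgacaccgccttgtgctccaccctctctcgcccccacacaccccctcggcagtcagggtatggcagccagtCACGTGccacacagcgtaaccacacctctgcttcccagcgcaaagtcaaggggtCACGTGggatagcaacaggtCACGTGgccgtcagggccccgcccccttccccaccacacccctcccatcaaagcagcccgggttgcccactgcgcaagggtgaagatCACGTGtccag

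The *Cdk1* window held 3 CCAAT letters at -208, -80 and -48, 2 CHR letters at -71 and -15, and 1 GCGCCAA at -178. In *Ccnb1*, GCGCCAA at -102 overlapped a CCAAT at -99, and a further CCAAT at -67 lay in the last 84 bases of the window, which fall inside the gene in GENCODE M21 and are not printed. The last 26 bases of the *Cdk1* window, with the CHR at -15, and the last base of the *Cdk4* window also fall inside the annotated genes. *Cdk4* held 4 E-boxes, at -172, -118, -98 and -11, and neither CCAAT nor an E2F core. Among 32841 promoters of the same length, CCAAT was found in 33.9%, the CHR letters in 16.0%, GCGGGAA in 3.82%, GCGCCAA in 1.97% and the E-box in 6.02%. These shares count promoters with at least 1 match and do not say how often several occur. The E-box letters were chosen after the sequences were seen, so the E-box share is no test of the *Cdk4* matches. Of the other windows, *Cdk6* held 1 E-box at -220, the second of the *Ccnd3* windows held 1 CCAAT at -108, and that of *Ccne1* held none of these letters. A match of letters is a description of the sequence and not a measured site.

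MEF libraries held 20005541 to 20587556 counts in RepB-/- and 11540344 to 16347806 in WT, so depth separated the genotypes, and its part in the MEF differences was not tested. Liver libraries held between 37682201 and 51542709 counts. In MEFs, scatter between replicates was small, with a biological coefficient of variation of 9.06%, against 51.2% in liver. With the replicate number added to the fit as a block, the values were 9.04% and 33.7%. In MEFs all 10 fibroblast markers were detected. Markers with at most 3 counts in any MEF library were 2 of 10 for hepatocytes (*Alb* among them), 1 of 3 for fetal liver (*Afp*), 2 of 8 for erythroid cells, 2 of 5 for immune cells (*Cd3e* among them) and 1 of 4 for keratinocytes (*Krt1*), whereas *Ass1* of the hepatocyte list (280.6 to 446.3 CPM), *Cd68* and *Adgre1* of the immune list and *Krt14* of the keratinocyte list were present. In liver, both replicate 1 libraries stood apart: the summed level of 4 fetal liver genes (*Afp*, *H19*, *Igf2* and *Dlk1*) was 5871 CPM (counts scaled by library size) in RepB-/- and 4674 in WT, against 4.10 to 20.0 in the other 4 libraries. The liver library of RepB-/- replicate 2 held 4 *Xist* counts and 4342 counts of 4 Y-linked genes, whereas the other liver libraries held 14494 to 26345 *Xist* counts and at most 1 Y-linked count. That is the pattern of a male library, in which a deletion on the X chromosome cannot be homozygous. *Xist* was not analysed in MEFs, and a count of the whole gene does not check the deletion of its repeat.

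In MEFs, 6 of the 10 members rose in RepB-/- and none fell, at an adjusted p under 0.05 in edgeR's quasi-likelihood test. Of the 13306 genes tested, 19.4% were called higher, 19.7% lower and 39.1% in either direction. The 6 were both E-type cyclins, cyclin A2, cyclin B1, *Cdk1* and *Cdk4*. The 3 D-type cyclins and *Cdk6* did not pass the threshold. The median log2 fold change of the 10 members was 0.28, against 0.0003 over all genes tested. All 6 that rose had every RepB-/- library above every WT library, which was so for 26.4% of all genes tested, and in the other 4 the genotypes overlapped. In bulk RNA, a difference in the share of cells of a type or phase and a difference in RNA per cell cannot be told apart.

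**Figure D1:**
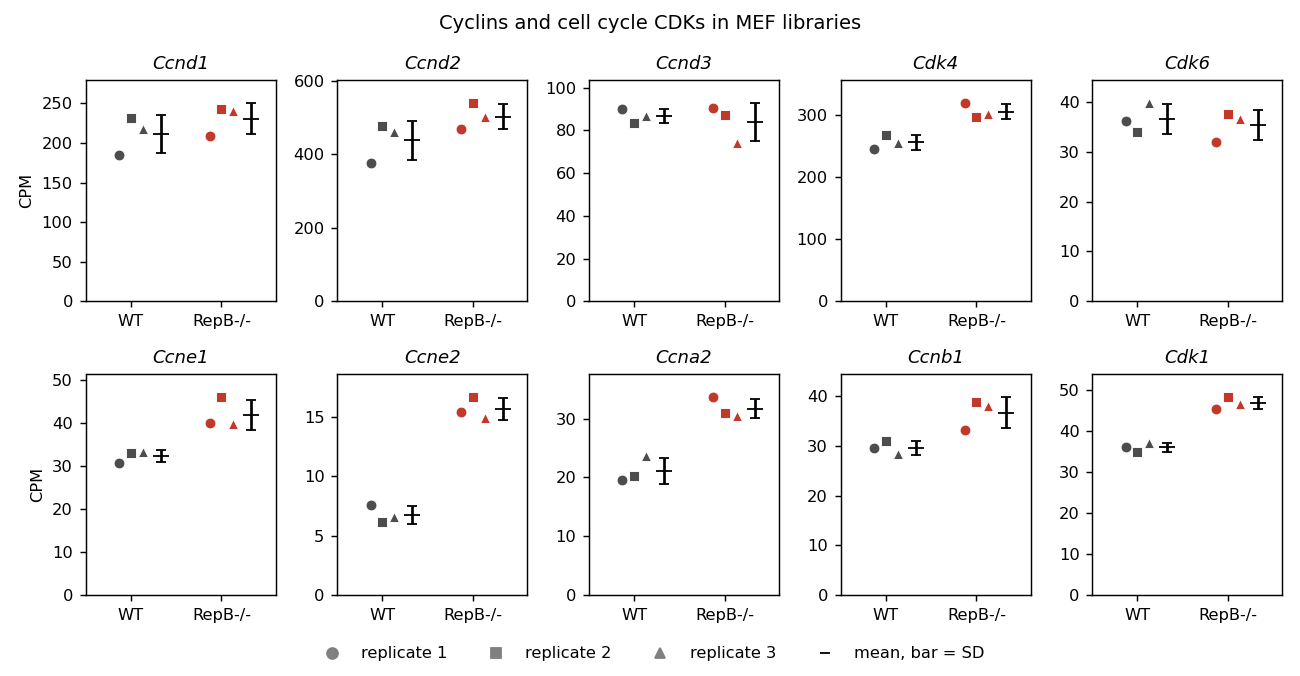
Level of each member in the 6 MEF libraries, in CPM on a linear axis from 0, with WT in grey and RepB-/- in red; each symbol is 1 library and the bar is the mean ± SD (n = 3). The upper row holds the D-type cyclins, *Cdk4* and *Cdk6*, of which only *Cdk4* separates the genotypes, and the lower row holds 5 members that all do.

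The D-type cyclins come first in the cycle. *Ccnd1* (ENSMUSG00000070348, GRCm39 chr7:144483668-144493662) was at 209, 243 and 240 CPM in RepB-/- replicates 1 to 3 and at 185, 232 and 218 CPM in WT. The genotypes overlapped, and the log2 fold change of 0.13 (SE 0.090) did not pass the threshold (edgeR, adjusted p = 0.29). *Ccnd2* (ENSMUSG00000000184, chr6:127102125-127129156) was at 469, 539 and 501 CPM in RepB-/- and 377, 478 and 461 CPM in WT. Its lowest RepB-/- library lay below the highest WT library, and its log2 fold change was 0.20 (SE 0.092, edgeR, adjusted p = 0.11). This gene passed the threshold when WT replicate 2 was left out (adjusted p = 0.048) and when no filter on low counts was applied (adjusted p = 0.025). *Ccnd3* (ENSMUSG00000034165, chr17:47815976-47910616) was at 90.7, 87.0 and 74.1 CPM in RepB-/- and 90.2, 83.5 and 86.6 CPM in WT, a log2 fold change of -0.05 with a 95% interval of -0.23 to 0.13.

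Of the kinases that bind D-type cyclins, *Cdk4* was called and *Cdk6* was not. *Cdk4* (ENSMUSG00000006728, chr10:126899403-126903789) was at 318, 296 and 301 CPM in RepB-/- and 245, 268 and 254 CPM in WT. No RepB-/- library reached down to the WT range, and *Cdk4* rose 1.19-fold (log2 fold change 0.25, SE 0.069, edgeR, adjusted p = 0.011). The call was lost when RepB-/- replicate 1 was left out (adjusted p = 0.056). *Cdk6* (ENSMUSG00000040274, chr5:3391485-3581008) was at 32.0, 37.5 and 36.5 CPM in RepB-/- and 36.1, 33.9 and 39.7 CPM in WT, a log2 fold change of -0.05 with a 95% interval of -0.25 to 0.15. The log2 ratio of *Cdk4* to *Cdk6* counts within a library was higher by 0.30 in RepB-/-, but the libraries of the genotypes overlapped. The two-sided exact permutation test gave p = 0.2, and 0.57 after adjustment over the 10 ratios compared, so it did not show that the kinases differed from each other.

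The E-type cyclins bind Cdk2. *Ccne2* (ENSMUSG00000028212, chr4:11191351-11204779) gave the largest difference of the 10 members, at 15.4, 16.6 and 14.9 CPM in RepB-/- and 7.62, 6.12 and 6.53 CPM in WT. The lowest RepB-/- library lay well above the highest WT library, and *Ccne2* rose 2.33-fold (log2 fold change 1.22, SE 0.13, edgeR, adjusted p = 2.2e-05). *Ccne1* (ENSMUSG00000002068, chr7:37797409-37806959) was more abundant, at 40.1, 46.1 and 39.8 CPM in RepB-/- and 30.9, 33.2 and 33.4 CPM in WT. Its groups did not overlap, and it rose 1.29-fold (log2 fold change 0.37, SE 0.089, edgeR, adjusted p = 0.0052). The kinase of both, *Cdk2*, was not called, with a log2 fold change of 0.09 (edgeR, adjusted p = 0.50).

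As for the other related pairs, the balance of *Ccne1* and *Ccne2* was compared within each library, where no scaling between libraries is needed. The ratio of *Ccne1* to *Ccne2* counts was 2.60, 2.77 and 2.67 in the RepB-/- MEF libraries and 4.05, 5.42 and 5.11 in WT. All RepB-/- ratios lay below all WT ratios, by 0.85 on the log2 scale. The two-sided exact permutation test gave p = 0.1, the smallest that 3 libraries against 3 allow, and 0.57 after adjustment over the 10 ratios compared.

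Cyclin A2, cyclin B1 and Cdk1 carry the cell from S phase to mitosis. *Ccna2* (ENSMUSG00000027715, chr3:36619014-36626299) was at 33.6, 31.0 and 30.5 CPM in RepB-/- and 19.6, 20.2 and 23.6 CPM in WT. It had no overlap between the genotypes and rose 1.496-fold (log2 fold change 0.58, SE 0.10, edgeR, adjusted p = 5.8e-04). *Cdk1* (ENSMUSG00000019942, chr10:69170976-69188768) was at 45.4, 48.3 and 46.7 CPM in RepB-/- and 36.2, 34.9 and 37.1 CPM in WT. Its 3 libraries of each genotype lay close together, and it rose 1.30-fold (log2 fold change 0.37, SE 0.079, edgeR, adjusted p = 0.0021). *Ccnb1* (ENSMUSG00000041431, chr13:100915158-100923078) was at 33.1, 38.9 and 38.1 CPM in RepB-/- and 29.5, 31.0 and 28.3 CPM in WT. The gap between its groups was narrow, and its 1.24-fold rise (log2 fold change 0.31, SE 0.092, edgeR, adjusted p = 0.017) was lost without RepB-/- replicate 2 (adjusted p = 0.079), without RepB-/- replicate 3 (0.058) and without WT replicate 3 (0.062).

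The scaling between libraries decided 2 of the 6 calls in MEFs. TMM, which scales libraries so that most genes centre on no change, gave factors of 0.958 to 0.968 in RepB-/- and 1.01 to 1.08 in WT. With library totals alone, the median log2 fold change of all genes moved to -0.11, and 31.2% of the genes called were higher in RepB-/-, against 49.6% with TMM. *Ccne1*, *Ccne2*, *Ccna2* and *Cdk1* were called higher under both scalings, with log2 fold changes of 0.26, 1.10, 0.47 and 0.26 on totals. *Ccnb1* (0.20, edgeR, adjusted p = 0.12) and *Cdk4* (0.14, adjusted p = 0.068) were not called on totals, although both lay above the median of all genes. In the deposited FPKM values, which are also scaled by totals, *Ccnb1* overlapped, with 7.52, 8.91 and 8.65 in RepB-/- and 7.56, 7.41 and 6.92 in WT.

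Exons of genes on the opposite strand overlap those of some members, and although the study's methods describe stranded libraries, it is not stated whether the counting used strand. *Ints8* shares 609 bases with *Ccne2* and had a log2 fold change of 0.36 in MEFs (edgeR, adjusted p = 0.011). *Exosc9* shares 510 bases with *Ccna2* and had a log2 fold change of 0.91 (edgeR, adjusted p = 5.2e-05), larger than that of *Ccna2* itself. *Tspan31* shares 641 bases with *Cdk4* and was at -0.11 (edgeR, adjusted p = 0.20). The largest overlap, of 1100 bases, was that of *LTO1* with *Ccnd1* (-0.15, edgeR, adjusted p = 0.35), and *Bysl* shares 361 bases with *Ccnd3* (0.08, adjusted p = 0.49). Antisense genes share 372 and 368 bases with *Ccnd2* and 368 with *Cdk6*. No such overlap was annotated for *Ccne1*, *Ccnb1* or *Cdk1*. The part of these overlaps in the values of the members, or in the ratios between them, was not tested.

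**Figure D2:**
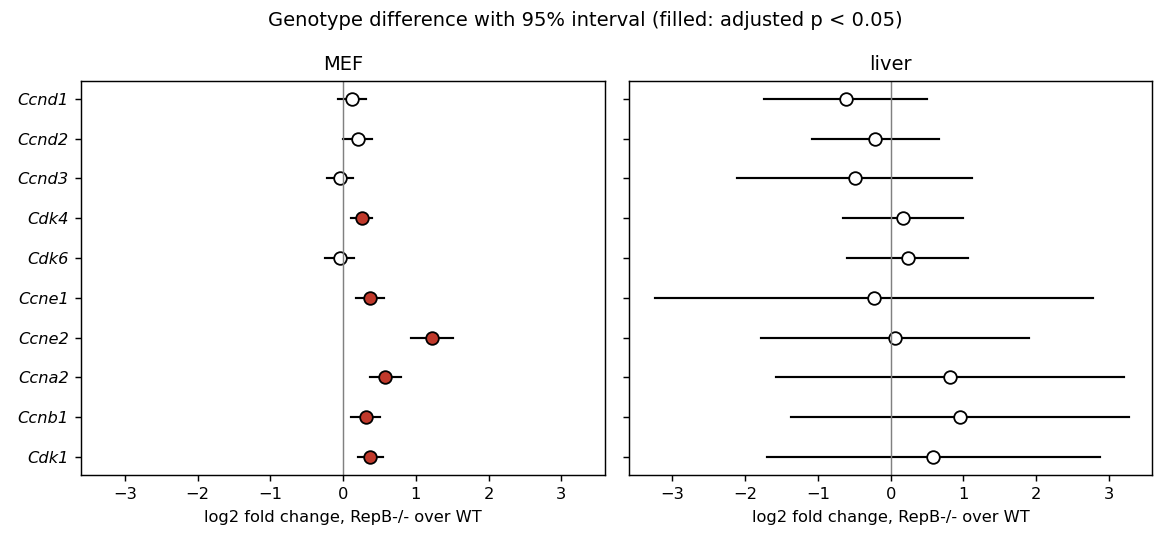
Log2 fold change of RepB-/- over WT for each member in MEFs (left) and liver (right), on the same horizontal scale, with 95% intervals from edgeR and filled points where the adjusted p was under 0.05. The 6 filled points are all in MEFs and above 0, and every liver interval spans 0.

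The other genes of the cycle in MEFs were read from lists, beside the 19.4% of all genes called higher and 19.7% called lower. Of 8 other cyclins and kinases of the cycle, 6 could be tested and 1 rose, *Ccnh*, the cyclin of the CDK-activating kinase (log2 fold change 0.42). *Ccnb2* was at 0.30 and was not called (edgeR, adjusted p = 0.10), and 2 genes of this list were called without WT replicate 2. Of 12 activators and brakes of CDKs, 5 rose (3 without RepB-/- replicate 1 and 2 without RepB-/- replicate 2) and 1 fell. The inhibitory kinases *Wee1* (0.67) and *Pkmyt1* (0.73) and the inhibitor of the anaphase-promoting complex *Fbxo5* (1.03) rose under both scalings. *Cks2*, a small subunit that binds CDKs (0.34), and *Fzr1*, an activator of the anaphase-promoting complex (0.26), were called with TMM alone. The phosphatase *Cdc25a* was at -0.28 with an adjusted p of 0.0499 (edgeR), and lost its call under 8 alternatives, among them TMM over autosomal genes and DESeq2.

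Inhibitors of CDKs moved in both directions. Of 8 tested, *Cdkn1a* (p21), the p53 target that blocks CDKs, fell by 0.74 on the log2 scale, from 663, 542 and 527 CPM in WT to 331, 357 and 352 CPM in RepB-/-. *Cdkn1c* (p57) fell by 2.55 but was near the floor, with 25, 17 and 22 counts in WT and 5, 8 and 1 in RepB-/-. *Cdkn2b* (0.30) and *Cdkn2c* (0.32), inhibitors of Cdk4 and Cdk6, rose with TMM and were not called on library totals or without RepB-/- replicate 1. *Cdkn1b* (0.23) and *Cdkn2a* (0.02) were not called.

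Of 13 genes of the retinoblastoma and E2F families, 7 rose and none fell, with log2 fold changes of 0.62 for *Rbl1*, 0.43 for *Rbl2* and 0.28 for *E2f1*. Of the 7, 3 were called on library totals, and 3 genes of these families were called without RepB-/- replicate 1. *Rb1* itself was at 0.25 and was not called. Of 7 genes of the MuvB complex and its partners, which act on the CHR of late cell cycle promoters, *Mybl2* rose (0.72), while *Foxm1* was at 0.05 and was not called, and on totals *Lin52* and *Rbbp4* were called lower. All 11 genes of a proliferation list rose with TMM, with *Mki67* at 1.09 and *Top2a* at 1.01, and 10 of the 11 on totals. Their summed level was 935 to 989 CPM in RepB-/- and 553 to 638 CPM in WT.

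Among 26 cyclins and CDKs with roles in transcription and elsewhere, 4 rose (2 without RepB-/- replicate 1) and 6 fell. The genes that fell included *Cdk9* (-0.52) and its partner cyclins *Ccnt1* and *Ccnt2*, which release paused RNA polymerase, and *Cdk5r1* (-1.28), the activator of Cdk5. Of those that rose, the X-linked *Cdk16* differed most, from 137, 147 and 143 CPM in WT to 251, 263 and 258 CPM in RepB-/- (log2 fold change 0.85). Marker lists of other cells also moved with genotype in MEFs. The summed level of 10 fibroblast markers was 29334 to 35315 CPM in RepB-/- and 20433 to 25280 CPM in WT, and 5 of them rose and 1 fell. That of 4 muscle markers was 56.1 to 63.2 CPM against 120 to 190 CPM, where *Acta1* alone fell, of 3 tested. That of 4 endothelial markers was 11.1 to 12.7 CPM against 24.1 to 28.4 CPM, and all 3 tested fell. Of 3 keratinocyte markers tested, *Krt14* alone rose, at 3.29 to 6.01 CPM against 0.56 to 2.26 CPM (log2 fold change 1.63, edgeR, adjusted p = 0.0033). In the immune list *Adgre1* rose (1.65, edgeR, adjusted p = 0.0020) and *Cd68* fell (-0.62, adjusted p = 0.027). Of 3 cholangiocyte markers, *Krt19* fell (-2.47), from 22.6 to 32.5 CPM in WT to 4.18 to 5.48 CPM in RepB-/-, *Krt7* rose (0.97) and *Epcam* was not called. Their part in the differences of the cyclins was not tested.

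In liver, none of the 10 members was called, and none reached an unadjusted p under 0.05 in edgeR, where 6 of 16080 genes (0.0373%) were called and 502 reached an unadjusted p under 0.05. DESeq2 called 80 genes and none of the members. The libraries of the genotypes overlapped for all 10, and 8.05% of all genes tested had no overlap. The intervals were wide: for *Ccne1* the 95% interval of the log2 fold change ran from -3.24 to 2.78, and for *Cdk4*, among the narrowest, from -0.65 to 0.99. The MEF values of all 6 members that rose there lay inside their liver intervals.

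**Figure D3:**
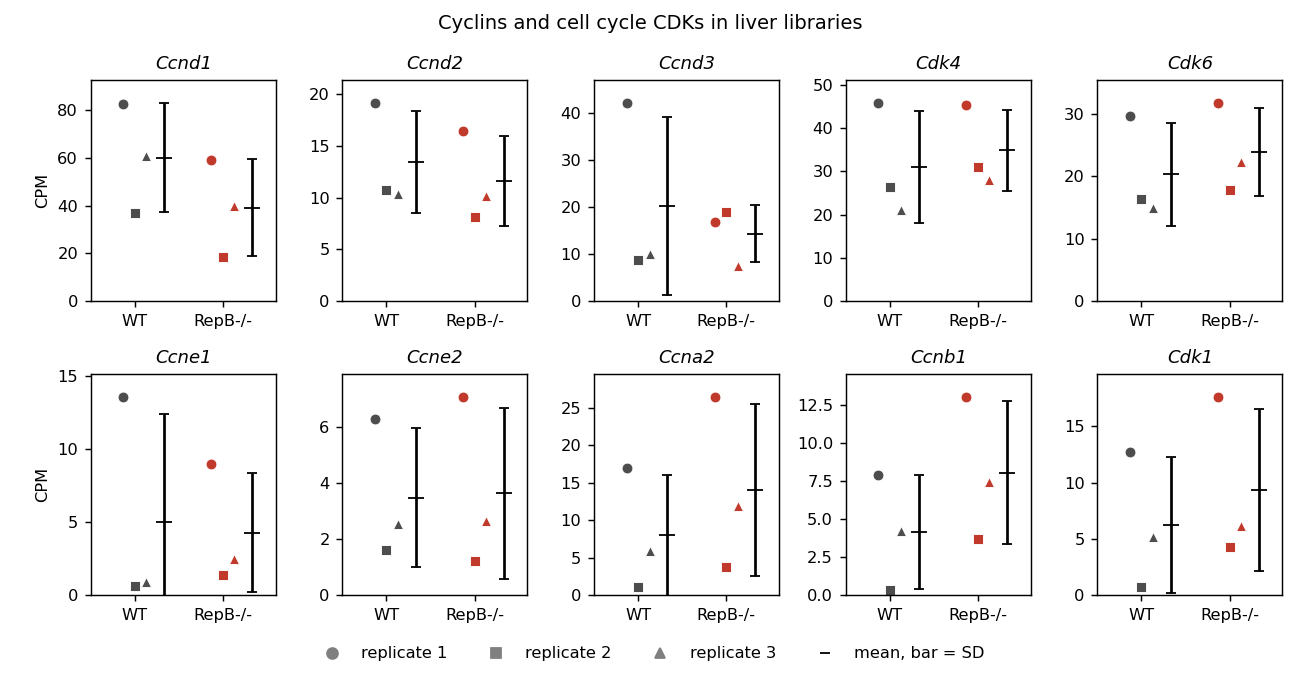
Level of each member in the 6 liver libraries, in CPM on a linear axis from 0, drawn as for the MEF libraries, with SD bars that pass below 0 cut at the axis. Circles, the replicate 1 libraries of both genotypes, lie above the squares and triangles in all members but *Ccnd1* and *Ccnd3*, and the genotypes overlap in every panel.

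Levels in liver differed more between libraries of one genotype than between the genotypes. *Cdk1* was at 17.6, 4.25 and 6.18 CPM in RepB-/- replicates 1 to 3 and at 12.7, 0.75 and 5.15 CPM in WT. *Ccna2* was at 26.4, 3.77 and 11.9 CPM in RepB-/- and 16.9, 1.14 and 5.85 CPM in WT, and *Ccnb1* at 13.01, 3.69 and 7.47 CPM and 7.87, 0.34 and 4.25 CPM. In all 3 genes replicate 1 was the highest library of each genotype and replicate 2 the lowest. *Ccne1* was at 8.98, 1.37 and 2.51 CPM in RepB-/- and 13.6, 0.65 and 0.89 CPM in WT, and *Ccne2* was at 7.05, 1.21 and 2.62 CPM and 6.29, 1.602 and 2.53 CPM. In 8 of the 10 members both replicate 1 libraries lay above the other 4, which was so for 23.0% of all genes tested in liver and 3.68% in MEFs.

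Of the members that act with growth signals, *Cdk4*, *Cdk6* and *Ccnd2* varied less, relative to their means, than *Cdk1*, *Ccna2*, *Ccnb1* and the E-type cyclins. *Ccnd3* spanned 8.78 to 42.1 CPM in WT, and *Ccnd1* spanned 18.6 to 58.9 CPM in RepB-/-. *Cdk4* was at 45.4, 31.1 and 28.0 CPM in RepB-/- and 45.7, 26.3 and 20.98 CPM in WT. *Cdk6* was at 31.7, 17.8 and 22.3 CPM in RepB-/- and 29.7, 16.4 and 14.9 CPM in WT, and *Ccnd2* at 16.5, 8.14 and 10.2 CPM and 19.1, 10.8 and 10.4 CPM. These genes had replicate 1 highest in both genotypes. *Ccnd1* was at 58.9, 18.6 and 39.9 CPM in RepB-/- and 82.3, 36.9 and 60.8 CPM in WT, and *Ccnd3* at 16.8, 19.005 and 7.47 CPM and 42.1, 8.78 and 10.1 CPM. For *Ccnd1*, WT replicate 3 exceeded RepB-/- replicate 1, and for *Ccnd3*, RepB-/- replicate 2 exceeded RepB-/- replicate 1.

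**Figure D4:**
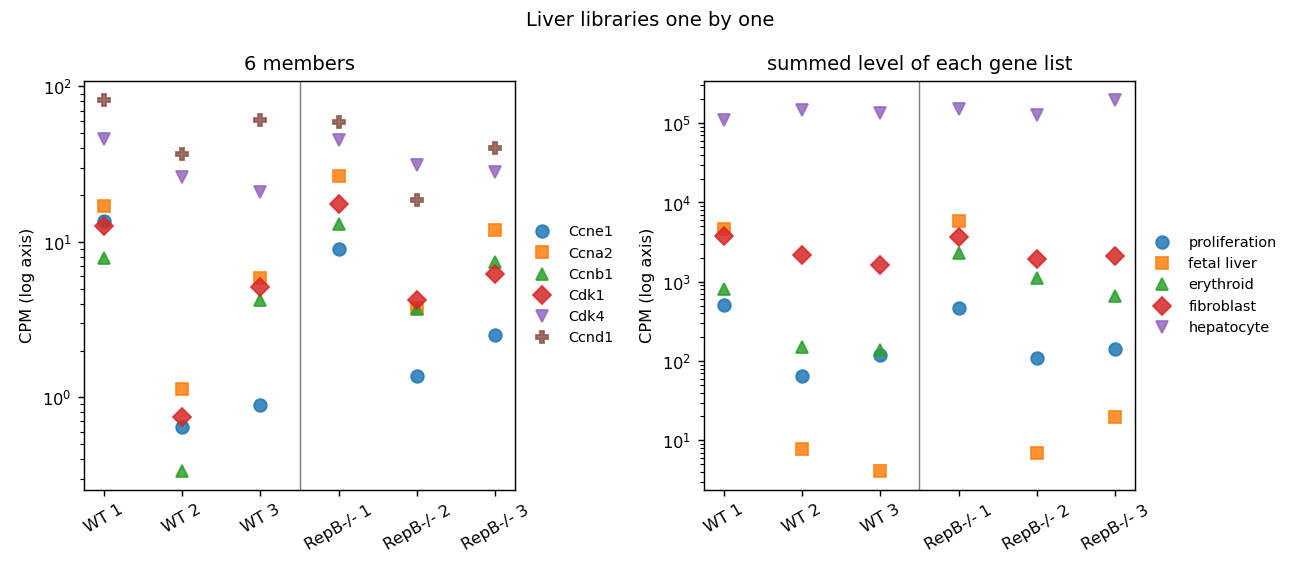
Liver libraries one by one on log axes, WT on the left and RepB-/- on the right of each panel: 6 members in CPM (left) and the summed CPM of 5 gene lists (right). *Ccna2*, *Ccnb1*, *Cdk1* and *Ccne1* are lowest in WT replicate 2, as is the proliferation list at 63.9 CPM, and the fetal liver list is at 4674 and 5871 CPM in the replicate 1 libraries and at 20.0 CPM or less in the others.

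Proliferation, fetal liver, fibroblast, endothelial, cholangiocyte and muscle lists were all highest in both replicate 1 libraries. Erythroid, hepatocyte, immune and keratinocyte markers had another order. Fibroblast markers summed to 3688 CPM in RepB-/- replicate 1 and 3828 CPM in WT replicate 1, and to at most 2177 CPM in the other libraries. The proliferation list summed to 464, 109 and 144 CPM in RepB-/- and 515, 63.9 and 118 CPM in WT. Erythroid markers summed to 2325, 1114 and 662 CPM in RepB-/- and 813, 153 and 138 CPM in WT. Hepatocyte markers summed to 125100 to 198216 CPM in RepB-/- and 110661 to 148535 CPM in WT. The part of any of these in the members' levels was not tested.

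Same-numbered liver libraries deviated together from their genotype means, with correlations of 0.71, 0.36 and 0.37, and were also compared within replicate numbers. A shift of replicate 1 moves the mean of its genotype, so the values for numbers 2 and 3 are not independent of it. Correlations between unlike numbers were not computed, so these values do not show that numbers 2 and 3 are pairs. *Ccna2*, *Ccnb1*, *Cdk1* and *Cdk6* were higher in RepB-/- at all 3 numbers, as 15.4% of all genes tested were, and *Ccnd1* and *Ccnd2* were lower at all 3, as 14.4% were. For *Ccnb1* the log2 differences were 0.72, 3.30 and 0.81, and the second of these rested on a WT library of 0.34 CPM. For *Ccnd1* they were -0.48, -0.99 and -0.60. With the replicate number as a block in edgeR, none of the members was called, with adjusted p from 0.50 for *Ccna2* and 0.56 for *Ccnd1* upwards, and 8 genes (0.0498%) were called in all. The errors were smaller with the block, and for *Ccne2*, whose MEF value was 1.22, the liver log2 fold change was then -0.054 (SE 0.29). Leaving out the RepB-/- library that held Y-linked counts gave no call among the members either.

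The genotype effect was compared between MEFs and liver by the interaction term in edgeR over all 12 libraries, where 59 of 15208 genes (0.388%) differed, or 192 (1.26%) with a replicate block. This fit estimated a single scatter per gene for both tissues. Fitted alone, however, the biological coefficient of variation was 9.06% in MEFs and 51.2% in liver, or 9.04% and 33.7% with the block. None of the members differed. The largest differences, MEF minus liver, were 1.16 for *Ccne2* (SE 0.82, adjusted p = 0.58) and 0.74 for *Ccnd1* (SE 0.51, adjusted p = 0.56). With the block their adjusted p-values were 0.081 and 0.086. *Ccnd1*, *Ccnd2* and *Ccne1* had log2 fold changes above 0 in MEFs and below 0 in liver. *Ccne2* (0.063 in liver), *Ccna2*, *Ccnb1*, *Cdk1* and *Cdk4* were above 0 in both. Of these values, only the MEF ones of *Ccne1*, *Ccne2*, *Ccna2*, *Ccnb1*, *Cdk1* and *Cdk4* passed a test.

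The balance of several pairs of members differed between the tissues in libraries of both genotypes, and for *Ccnd1* and *Ccnd2* the more counted gene of the pair changed. The ratio of *Ccnd1* to *Ccnd2* counts was 0.44 to 0.49 in the 6 MEF libraries and 2.28 to 5.86 in the 6 liver libraries. The ratio of *Cdk4* to *Cdk6* counts was 6.41 to 9.94 in MEFs and 1.25 to 1.75 in liver. That of *Ccne1* to *Ccne2* was 2.60 to 5.42 in MEFs and 0.35 to 2.16 in liver. None of these ranges overlapped between the tissues, but *Cdk4* exceeded *Cdk6* in all 12 libraries and *Ccne1* exceeded *Ccne2* in 3 of the liver libraries. The ratio of *Ccnd2* to *Ccnd3* was 4.18 to 6.76 in MEFs and 0.43 to 1.36 in liver, and that of *Ccnd1* to *Ccnd3* overlapped, at 2.05 to 3.24 and 0.98 to 6.04. Each ratio uses the same pair of genes in both tissues, but the tables were made separately and with different annotation, so the differences between tissues are given without a test.

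**Figure D5:**
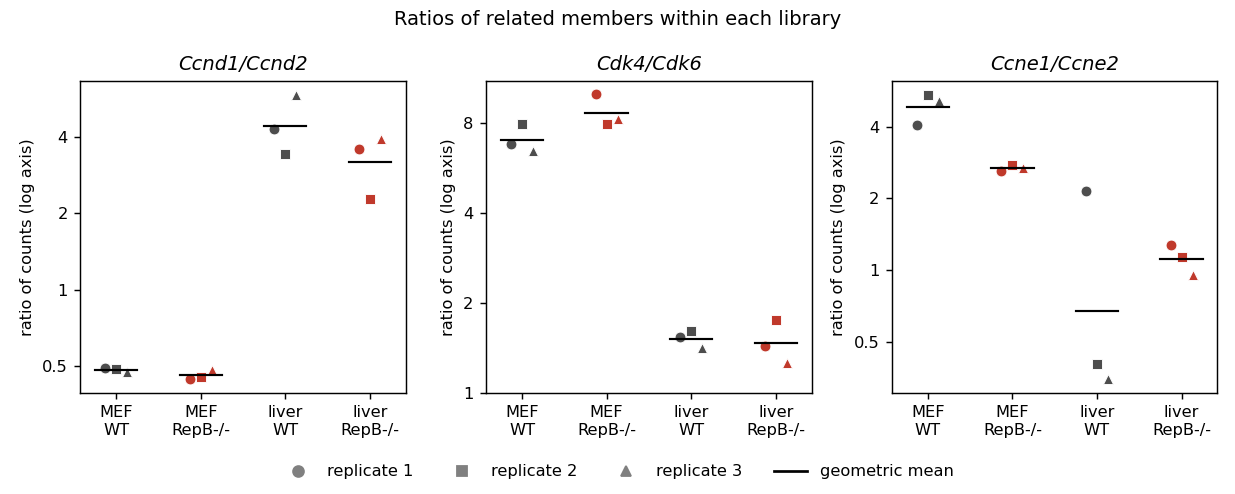
Ratio of the counts of related members within each library, on log axes, for *Ccnd1* to *Ccnd2*, *Cdk4* to *Cdk6* and *Ccne1* to *Ccne2*, with WT in grey, RepB-/- in red and the geometric mean as a line. MEF and liver libraries do not overlap in any panel, and the genotypes separate in MEFs in the third panel alone.

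Levels of different members can be set beside each other per length, but the order depends on which length is used. The lengths listed with the MEF values equal those of the merged exons of each gene, which can exceed the length of its transcripts, as for *Ccnd3* (8775 bases) and *Cdk6* (13989 bases). In WT MEFs the deposited FPKM was highest for *Cdk4*, at 81.7 ± 1.27 (SD, n = 3), followed by *Ccnd2* at 48.3 ± 4.30 and *Ccnd1* at 46.5 ± 3.73, which overlapped each other. Then came *Ccne1* (12.7), *Ccnd3* (10.3), *Cdk1* (7.60), *Ccnb1* (7.30), *Ccna2* (5.38), *Cdk6* (2.72) and *Ccne2* (2.01), and of these neighbours only *Cdk1* and *Ccnb1* overlapped. The member with the largest genotype difference in MEFs, *Ccne2*, was by this measure the least abundant in WT, and stood at 4.30 ± 0.27 FPKM in RepB-/-. In WT liver the deposited TPM was highest for *Cdk4*, at 47.2 ± 22.1, then *Ccnd1* at 29.7 ± 14.0 and *Ccnd3* at 19.9 ± 20.2, and each neighbour in the order overlapped the next. With counts per length of the merged exons of GENCODE M21, the measure most like the MEF values, *Ccnd1* (13.9 CPM per kilobase) came before *Cdk4* (10.4), and *Ccnd3* was at 2.62.

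Across libraries many members varied together, the late ones among them. Pearson correlations of log2 CPM over the 6 libraries of a tissue, which share genotype and in liver the replicate 1 libraries, were 0.74 to 0.95 in MEFs and 0.95 to 0.97 in liver among *Ccna2*, *Ccnb1* and *Cdk1*. Among the D-type cyclins they ran from -0.64 to 0.95 in MEFs and from 0.31 to 0.83 in liver. All 45 pairs of members ran from -0.64 to 0.98 in MEFs (median 0.65) and from 0.31 to 0.97 in liver (median 0.72). Pairs beyond the late members were as high, with 0.98 for *Ccne2* and *Cdk1* in MEFs and 0.97 for *Ccne1* and *Cdk6* in liver. Of 11978 genes tested in both tissues, the pattern over all 12 libraries, each tissue scaled by itself, was most like that of *Cdk1* for *Top2a* (r = 0.99), *Ndc80*, *Clspn*, *Ncapg2* (0.98 each) and *Shcbp1* (0.97). For *Ccnd1* the most alike were *Maoa* (0.93), *Ptk2* (0.90), *Agpat5*, *Sumf2* (0.89 each) and *Prmt3* (0.88).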

How the data were processed

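Groups and replicate numbers came from the sample labels (B for RepB-/-, W for WT). By the authors' methods, Cutadapt cleaned the reads and Hisat2 aligned them, while the submitters' processing notes name Trim Galore 0.4.1, STAR 2.7.0 and HTSeq 0.12.4; which made these tables is not given in the sources used here. The deposited values are raw counts per gene, FPKM (MEF table, GRCm39) and TPM (liver table, GRCm38), computed by the authors. The other 6 per-library columns, and the authors' own comparisons, were not used. Brain libraries were not analysed here.

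Each tissue was fitted alone with edgeR 4.0.16 (R 4.3.3): TMM, filterByExpr defaults, a quasi-likelihood test of genotype, and Benjamini-Hochberg adjustment over all genes tested. CPM were scaled with the TMM factors, log2 CPM used a prior count of 2, and fits were tested on simulated counts. The members and gene lists were chosen with earlier results of these data known. Genes named beyond the members come from these lists. Each tissue's depth is given above. Same-numbered libraries correlated after genotype means were removed in liver (above) but not in MEFs. Alternatives used DESeq2 1.42.0, limma 3.58.1, other scalings and filters, a replicate block, and each library left out. Scaling by totals was added after the data were seen. Motif letters for the E-box were chosen after the sequences were seen. Ratios and figures used Python 3.11.15 (scipy 1.17.1, pandas 2.3.3, matplotlib 3.10.9).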

Additional observations from a re-analysis of the deposited data

How the results depend on the processing

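In MEFs, 5 to 7 members were called with each library left out in turn, 4 on library totals and 7 without a filter on low counts. Same-numbered MEF libraries did not deviate together (correlations of -0.011, -0.042 and -0.0035), and a replicate block gave 6 members and 5006 genes against 5202. Without a library, *Ccnd3* ranged from -0.10 to 0.041 and *Cdk6* from -0.10 to 0.024, and both changed sign. In liver, the 6 genes called became 80 with DESeq2, 2 with a mean normalized count of at least 40, 0 without a filter, 0 on library totals, 2 with replicate 1 of both genotypes removed, 0 with replicate 2 of both removed and 0 to 4 without 1 library; the members called were 0 throughout.

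Uncalled liver fold changes turned sign as follows. With the replicate block *Ccne1* was 0.62 and *Ccne2* -0.054, and with replicate 1 of both genotypes removed *Ccnd3* was 0.50, *Ccne1* 1.33 and *Ccne2* -0.12. On totals *Ccne2* was -0.10 and *Cdk4* -0.0014. Without 1 library the ranges were -0.55 to 0.14 for *Ccnd2*, -0.84 to 0.62 for *Ccnd3*, -1.38 to 2.48 for *Ccne1*, -0.86 to 0.81 for *Ccne2*, -0.028 to 2.002 for *Ccna2*, -0.25 to 1.66 for *Cdk1*, -0.065 to 0.56 for *Cdk4* and -0.017 to 0.62 for *Cdk6*.

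The 59 genes that differed between tissues became 39 with voom, 37 without a filter, 19 on totals, 192 with the replicate block and 1 to 428 without 1 library. The interaction of *Ccne1* was -0.31 with voom and -0.17 with the block. Without 1 library it ranged from -0.67 to 0.82 for *Ccnd3*, -2.10 to 1.80 for *Ccne1*, -1.40 to 0.67 for *Ccna2*, -1.26 to 0.67 for *Cdk1*, -0.30 to 0.35 for *Cdk4* and -0.66 to 0.0028 for *Cdk6*. The causes of these shifts were not tested. The spread between liver libraries limits every comparison in liver.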
